A study of Mus musculus with 10 samples.

Results

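The 10 genes described here encode proteins that coat lipid droplets, fuse them or help them to bud: the perilipins Plin2, Plin3, Plin4 and Plin5, the CIDE genes Cidea, Cideb and Cidec, the fat storage-inducing transmembrane genes Fitm1 and Fitm2, and Hsd17b13. They were chosen by gene symbol. All 10 were among the 17359 genes of the count table, and all 10 were among the 12789 genes kept by the filter on low counts. Cidea passed that filter only through the ad libitum libraries, where it is highest, so that its passing and its difference from that group are not independent.

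The samples are whole mouse liver from a study of a weekly cycle of calorie restriction, and every animal in the groups used here ate a high-fat diet, which the study used to induce obesity. Ad libitum controls (AL, n = 3, replicates 2, 3 and 4) ate the high-fat diet without restriction. Restricted livers (LC, n = 4, replicates 1 to 4) were from day 3 of the cycle, when calories were cut by 70%, after 50% on day 1 and 70% on day 2. Refed livers (RF, n = 3, replicates 1 to 3) were from day 7 of the cycle, after a 50% cut on day 4 and unrestricted eating from day 5. No group on a standard diet is compared here, and the sources used here do not give strain, sex, age, hour of collection or how often the cycle had been repeated. The labels do not say that the libraries of a group come from separate animals, so p-values measure the spread between these libraries, which may be technical.

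A lipid droplet is a core of triglyceride and sterol ester under a single layer of phospholipid. Droplets bud from the endoplasmic reticulum with the help of seipin and the FITM proteins, and perilipins then sit on their surface and limit or direct the access of lipases. CIDE proteins gather where droplets touch and pass lipid from the smaller to the larger one, and in hepatocytes Cideb also takes part in loading triglyceride onto very low density lipoprotein. Hsd17b13 is a hepatocyte enzyme of the droplet surface. In fatty liver Cidea and Cidec are known as genes that PPARG can switch on, while Plin2, Plin4 and Plin5 are known targets of PPAR family receptors. Perilipins also differ in where they are usually found: Plin2 and Plin3 in most tissues, Plin5 in tissues that oxidise fatty acids, and Plin4 mainly in adipose tissue and muscle.

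Some of the 10 genes are known targets of nuclear receptors, and the 10 did not move as a block. Sequences are shown from before the start sites of the main liver perilipin, the 1 gene that rose at LC and a pair that fell. The stretches are 200 bases long, end 50 bases short of the annotated start, are written 5′ to 3′ on the strand of the gene, and come from RefSeq on build GRCm38.p6, not the build of the deposited table. All of these genes lie on the minus strand: Plin2 at chr4:86670110-86670309, Plin4 at chr17:56109833-56110032, Cideb at chr14:55758475-55758674 and Cidec, at the first of its annotated starts, at chr6:113435811-113436010. Capitals mark a match to a direct repeat of AGGTCA and AGGTCA with 1 base between them, the form that PPAR receptors bind, with at most 2 mismatches on either strand.
Plin2: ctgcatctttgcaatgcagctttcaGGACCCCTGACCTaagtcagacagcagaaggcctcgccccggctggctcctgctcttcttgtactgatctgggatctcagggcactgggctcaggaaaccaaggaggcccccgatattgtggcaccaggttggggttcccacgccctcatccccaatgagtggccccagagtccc
Plin4: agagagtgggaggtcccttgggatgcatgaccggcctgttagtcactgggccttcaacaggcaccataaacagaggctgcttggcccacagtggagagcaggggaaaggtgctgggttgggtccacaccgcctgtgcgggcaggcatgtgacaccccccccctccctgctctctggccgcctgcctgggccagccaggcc
Cideb: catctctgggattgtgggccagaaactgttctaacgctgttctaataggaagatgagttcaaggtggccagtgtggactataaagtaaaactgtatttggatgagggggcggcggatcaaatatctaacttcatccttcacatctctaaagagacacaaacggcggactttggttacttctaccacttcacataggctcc
Cidec: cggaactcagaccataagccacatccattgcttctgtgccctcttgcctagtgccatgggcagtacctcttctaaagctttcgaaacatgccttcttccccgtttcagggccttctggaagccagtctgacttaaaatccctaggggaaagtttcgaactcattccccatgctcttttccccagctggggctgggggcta
In the full windows, 250 bases before and 50 after the start, 9 of the 10 genes had an entry, with 11 windows between them. The direct repeat was found in 3.86% of all 32851 windows of this length and, of these genes, in Plin2 alone, on the strand opposite to the gene, 225 bases before the start, with 2 mismatches. Its single half-site AGGTCA was in 16.3% of all windows and in those of Plin2, where it lies inside the capitals, Plin5 and Hsd17b13. The letters CACGTG, an E-box, were in 7.15% of windows and in that of Plin2, 4 bases before the start, and TGACG, part of the site of the cyclic AMP response factor, was in 20.8% and in those of Fitm1 and Hsd17b13. The forkhead letters TGTTTAC (3.65% of windows) and the glucocorticoid-type palindrome, AGAACA and TGTTCT with 3 bases between them and up to 3 mismatches (14.5%) were in none of the 11. Each motif was searched on both strands. A match is only a description of the letters in these windows.

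The libraries held from 13871533 to 15899479 expected counts each. On the first principal component the LC libraries (23.4 to 38.6) lay apart from AL (−31.3 to −9.49) and RF (−21.9 to −14.2). In bulk liver, fewer cells of a type and less RNA per cell cannot be told apart. Markers of hepatocytes, the main cells of the organ, were abundant in every library, with summed levels of 116855 to 137259 CPM (counts scaled to a common library size by TMM) in AL libraries, 86823 to 94960 CPM in LC libraries and 107304 to 115447 CPM in RF libraries. Of 14 hepatocyte markers 8 fell at LC against AL, where 15.6% of all genes fell. The sum moved in the same direction as 5 of the 10 droplet genes, and its part in their fall was not tested. Of the fat cell markers, Adipoq had at most 1 count in a library, Retn at most 2, and Plin1, the perilipin of fat cells, 0 to 9, while Cfd, Car3, Adrb3 and Fabp4 were detected in every library.

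**Figure D1:**
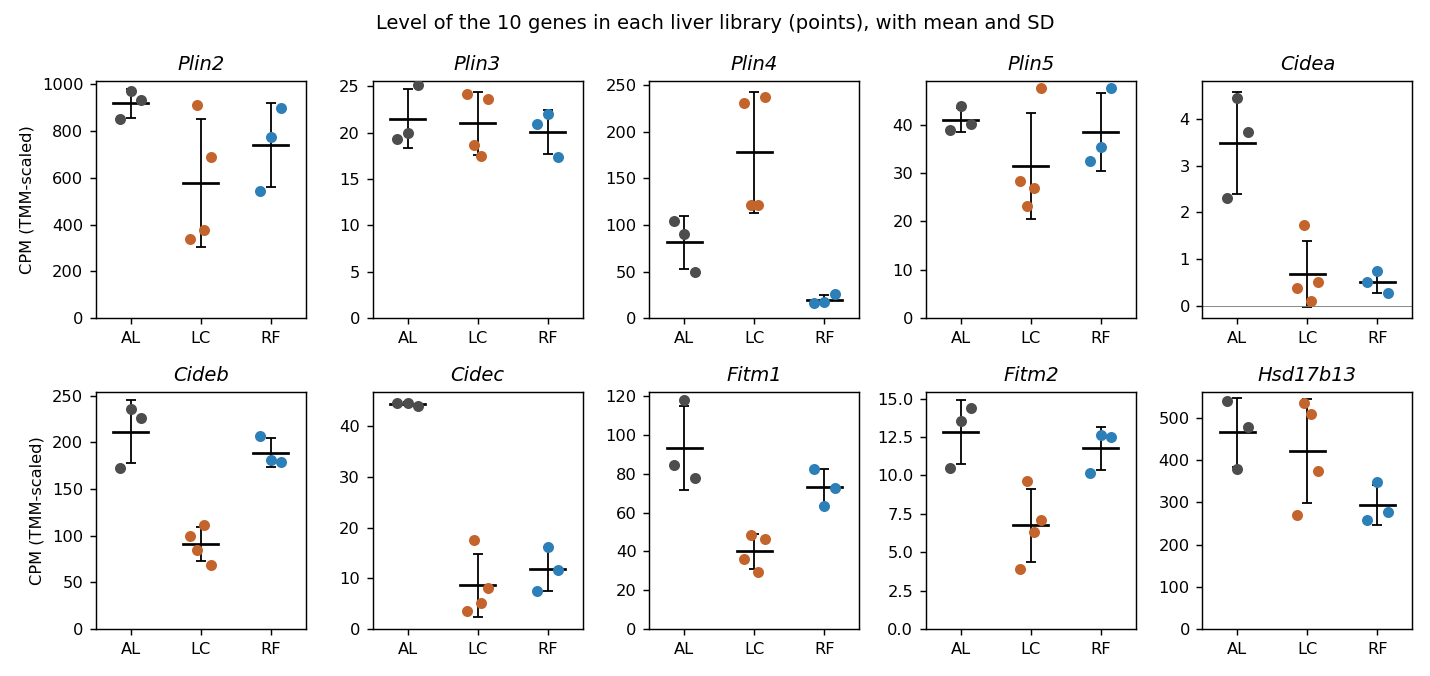
Level of each of the 10 genes in TMM-scaled CPM, one panel per gene. Points are the 3 AL, 4 LC and 3 RF libraries, the bar is the group mean and the whisker 1 SD. Plin4 is the gene whose LC libraries lie above both other groups, and the 3 AL libraries of Cidec lie almost on 1 level.

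Compared per length, in the FPKM values that the authors deposited, the 10 genes spanned a wide range of levels. At AL Plin2 was highest (mean 532 FPKM), followed by Hsd17b13 (409), Cideb (205), Fitm1 (126), Cidec (27.4), Plin5 (23.4), Plin4 (11.6), Plin3 (10.1), Fitm2 (8.25) and Cidea (3.4). Ranges of neighbours in this order overlapped at AL for Plin4 (7.35 to 15.8) and Plin3 (8.70 to 12.1), and for Plin3 and Fitm2 (7.12 to 9.50), and for no other neighbours. At LC the ranges of Plin2 (249 to 628 FPKM) and Hsd17b13 (298 to 579) overlapped, and Plin4 (21.4 to 44.8) had reached the range of Plin5 (16.5 to 34.4). At RF Plin4 (2.57 to 3.89 FPKM) lay under every other gene of the set except Cidea (0.28 to 0.78).

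The first comparison sets LC libraries, from day 3 of the cycle, against AL libraries, all on the high-fat diet. How often the cycle had been repeated is not known. At LC 1 of the 10 genes rose against AL, the perilipin Plin4, and 5 fell: all 3 CIDE genes and both FITM genes. The perilipins Plin2, Plin3 and Plin5 and the enzyme gene Hsd17b13 did not pass the test. A gene counts as changed here where edgeR's quasi-likelihood test gives an adjusted p below 0.05 over all genes tested. By that rule 16.0% of all genes rose and 15.6% fell in this comparison. So 1 of 10 rising is near the background and 5 of 10 falling is above it. The 5 include Cidea, which passed the filter on low counts only through AL, so its fall is not independent of that filter. The 10 genes were chosen with earlier results of these data known, so these counts are a description. The median log2 fold change of the 10 genes was −0.80, against 0.05 for all genes. That split of all genes depends on the scaling: 2045 rose and 1989 fell with TMM, and 4395 rose and 686 fell with library totals alone, but the same 1 and 5 droplet genes were called under both.

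The second comparison sets RF against AL, and asks whether levels after refeeding differed from those of animals that were never restricted. None of the 10 genes passed the adjusted test, where 0.0547% of all genes did (7 of 12789). At an unadjusted p below 0.05, 1381 genes passed, and with them 4 of the 10: Plin4, Cidea, Cidec and Hsd17b13. In these 4 the RF and AL libraries did not overlap, which held for 18.9% of all genes. DESeq2 called 2 of the 10, Plin4 and Cidea, and 100 genes in all.

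The third comparison, RF against LC, sets day 7 of the cycle against day 3. The 50% cut of day 4 lies between them, as does the unrestricted eating. Cideb, Fitm1 and Fitm2 rose and Plin4 fell, and the other 6 did not pass. Of all genes 11.4% rose and 10.7% fell in this comparison. The 3 comparisons share libraries in pairs, so that a low AL or LC library bears on 2 of them.

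**Figure D2:**
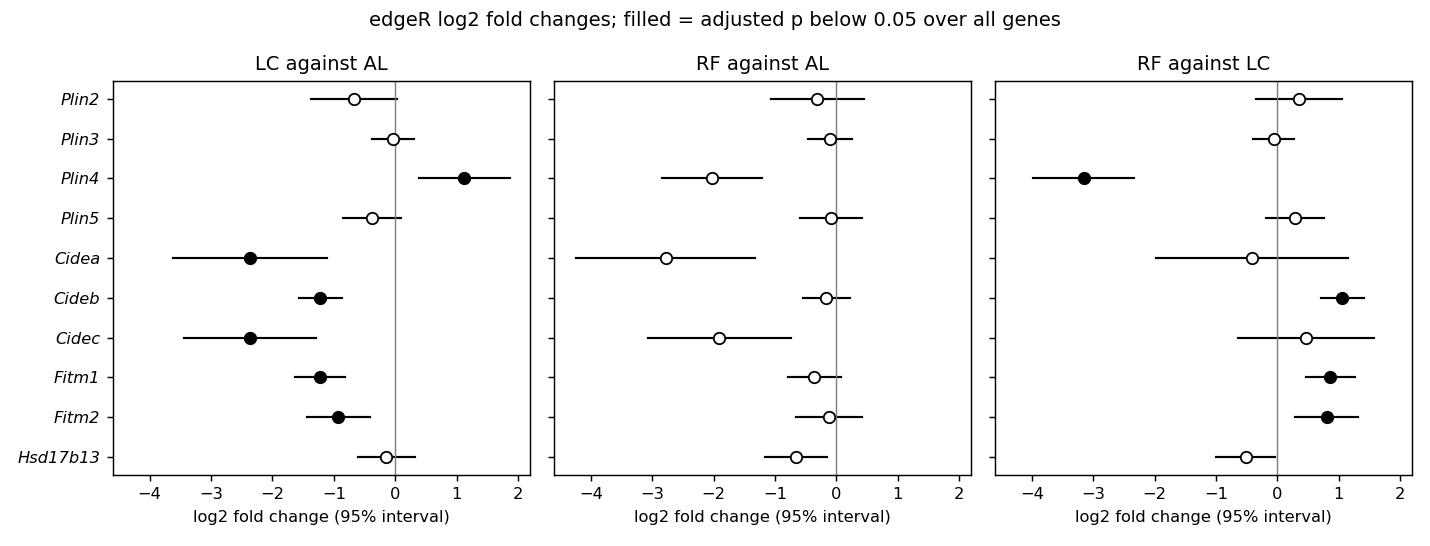
Log2 fold change of each gene with its 95% interval, for LC against AL, RF against AL and RF against LC. Filled points have an adjusted p below 0.05 over all genes. Plin4 lies right of 0 at LC against AL (1.13) and left of it at RF against AL (−2.03), where it is not filled, and at RF against LC (−3.16).

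Plin4 (NCBI gene 57435) encodes a perilipin with a long repeated amphipathic helix that coats droplets rich in neutral lipid. Its level was 104, 90.1 and 50.0 CPM in AL replicates 2, 3 and 4, it was 231, 122, 122 and 238 CPM in LC replicates 1 to 4, and it was 16.7, 17.3 and 25.8 CPM in RF replicates 1 to 3. The 3 groups did not overlap, and the order was LC above AL above RF. AL averaged 81.4 ± 28.1 CPM (SD, n = 3), LC averaged 178 ± 65.1 CPM (n = 4) and RF averaged 19.9 ± 5.10 CPM (n = 3). LC was 2.19-fold higher than AL (log2 fold change 1.13, SE 0.334, adjusted p = 0.0282). RF was 8.92-fold lower than LC (log2 fold change −3.16, SE 0.369, adjusted p = 0.000949). This is the largest change of any of the 10 genes between LC and RF, and it was called under all 19 alternatives run. Against AL, RF had 24.5% of the mean level, a log2 fold change of −2.03 (95% interval −2.84 to −1.21, unadjusted p = 0.000251, adjusted p = 0.122). DESeq2 gave −2.05 with an adjusted p of 3.28e-07. Of the 19 alternatives it was the only 1 that called this difference, and the highest adjusted p among them was 0.413.

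The rise of Plin4 at LC rests on few libraries. LC replicates 1 and 4 are near 235 CPM, between 231 and 238, and LC replicates 2 and 3 are near 122, so that the LC libraries fall into pairs. The call was lost without AL replicate 3 (log2 fold change 1.21, adjusted p = 0.0768), AL replicate 4 (0.87, 0.0833), LC replicate 1 (0.98, 0.0693) or LC replicate 4 (0.96, 0.0578), and with no filter on low counts (1.12, 0.0543). A fit with a block for replicate number, described with the processing below, also ended the call (1.08, adjusted p = 0.135). Over the settings that each leave out 1 library the log2 fold change lay between 0.87 and 1.35. Plin4 overlaps Hdgfl2 in the RefSeq annotation, and the libraries do not keep strand. Hdgfl2 rose at LC against AL by 0.52 on the log2 scale (adjusted p = 0.00667), from 52.8 ± 2.83 to 75.6 ± 7.07 CPM, and fell at RF against LC (−0.45, adjusted p = 0.0188), but it stood at 55.3 ± 5.73 CPM at RF, near AL, where Plin4 was lowest. Its part in the counts of Plin4 was not tested.

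Plin2 (NCBI gene 11520), the perilipin that follows the amount of stored lipid in hepatocytes, was at 850.2, 972 and 932 CPM in the AL libraries. It was at 338, 912, 376 and 687 CPM at LC and at 545, 776 and 899 CPM at RF. The AL libraries were close together, whereas LC replicate 2 lay inside the AL range and LC replicates 1 and 3 lay below every library of the other groups. The log2 fold change at LC was −0.67 (95% interval −1.37 to 0.04, adjusted p = 0.134), and without LC replicate 2 it was −0.97 (adjusted p = 0.0154). At RF against AL it was −0.31 (−1.07 to 0.44, adjusted p = 0.778), and at RF against LC it was 0.36 (adjusted p = 0.453).

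Plin5 (NCBI gene 66968) tethers droplets to mitochondria and lies next to Plin4 on chromosome 17. Its level was 38.9, 43.8 and 40.1 CPM at AL. LC held 28.3, 23.1, 26.9 and 47.4 CPM, and RF held 32.5, 35.4 and 47.6 CPM. In LC 3 of the 4 libraries were below every AL and RF library, and LC replicate 4 was above every AL library. The log2 fold change at LC was −0.38 (95% interval −0.85 to 0.09, adjusted p = 0.202), and −0.65 without LC replicate 4 (adjusted p = 0.0115). RF differed from AL by −0.09 (−0.59 to 0.42, adjusted p = 0.922). At RF against LC the value was 0.29 (adjusted p = 0.356), and 0.56 without LC replicate 4 (adjusted p = 0.0304). So Plin4 and Plin5, neighbours in the genome on the same strand, had estimates of opposite sign in both comparisons with LC.

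Plin3 (NCBI gene 66905), a soluble perilipin that binds small, new droplets, was the steadiest of the 10. Its libraries lay at 19.4, 20.0 and 25.2 CPM at AL, 24.1, 18.7, 17.4 and 23.7 CPM in LC, and 20.9, 22 and 17.4 CPM in RF. All 3 groups overlapped. The intervals were −0.37 to 0.30 at LC against AL, −0.46 to 0.26 at RF against AL and −0.40 to 0.28 at RF against LC. With library totals the values at LC against AL and at RF against AL turned above 0.

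**Figure D3:**
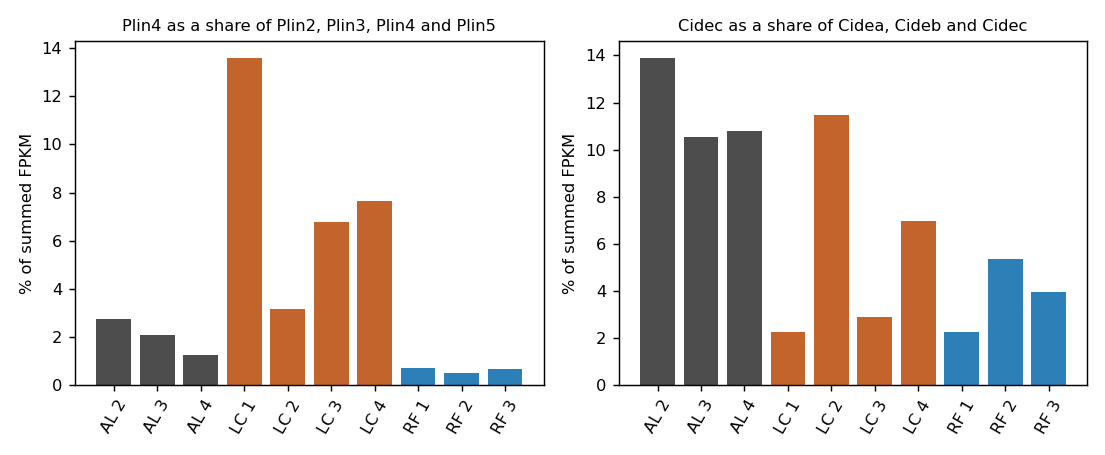
Plin4 as a percentage of the summed FPKM of Plin2, Plin3, Plin4 and Plin5 (left) and Cidec as a percentage of the summed FPKM of Cidea, Cideb and Cidec (right), 1 bar per library. Plin4 takes 3.17 to 13.6% of the perilipin sum in LC, 1.24 to 2.75% in AL and 0.502 to 0.694% in RF libraries.

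Plin2 nevertheless made up most perilipin transcript per length in every library. Its share of the summed FPKM of the 4 perilipins was 91.4 to 92.8% in AL, 75.7 to 92.9% in LC and 91.0 to 93.1% in RF libraries. The share of Plin4 did not overlap between the groups. It was lowest among the LC libraries in replicate 2 (3.17%), the library with the highest Plin2, and highest in replicate 1 (13.6%), the one with the lowest Plin2.

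Cideb (NCBI gene 12684) is the main CIDE gene of hepatocytes. It was at 173, 236 and 226 CPM in AL, at 99.2, 84.5, 111 and 69.0 CPM in LC and at 207, 181 and 179.6 CPM in RF. Every LC library was below every AL and RF library, and RF lay within the AL range. At LC it was 2.33-fold lower than at AL (log2 fold change −1.22, SE 0.165, adjusted p = 0.000361), and RF was 2.08-fold higher than LC (1.06, SE 0.165, adjusted p = 0.00139). RF held 89.4% of the AL mean, a difference of −0.16 (95% interval −0.54 to 0.22, adjusted p = 0.774). Both calls held under all 19 alternatives. Cideb overlaps Nop9 and Ltb4r2 in the annotation, and it is the only one of the 10 whose expected counts were not whole, in 10 of 10 libraries, and where its fractional counts come from was not tested. Nop9 stood at 26.9 CPM at AL, 28.0 at LC and 28.4 at RF, a log2 fold change of 0.06 at LC (adjusted p = 0.761). Of the genes next to Cideb, named after their values were seen, Dhrs1 fell at LC against AL (−1.03, adjusted p = 0.00128). Ltb4r1, on the other side, did not pass (0.29, adjusted p = 0.714). The part of these genes in the counts of Cideb was not tested.

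Cidec (NCBI gene 14311), which enlarges droplets in fat cells and in fatty liver, was at 44.5, 44.6 and 44.1 CPM in AL. It was at 3.58, 17.5, 5.17 and 8.16 CPM in LC and at 7.54, 16.2 and 11.7 CPM in RF. No LC or RF library came near the AL level, and the LC and RF ranges overlapped. At LC it was 5.16-fold lower than at AL (log2 fold change −2.37, SE 0.474, adjusted p = 0.00647), which held under all 19 alternatives. RF held 26.6% of the AL mean, a log2 fold change of −1.91 (95% interval −3.07 to −0.74, adjusted p = 0.265). The difference between RF and AL passed when those groups were fitted alone (−1.90, adjusted p = 0.0416) and without LC replicate 2 (−1.91, adjusted p = 0.0482), and in no other of the 19 alternatives. RF against LC was 0.46 (−0.64 to 1.57, adjusted p = 0.532), and 1.07 without LC replicate 2 (adjusted p = 0.0326).

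Cidea (NCBI gene 12683), usually a gene of brown fat that is also found in fatty liver, had the fewest counts of the 10. AL libraries held 31, 57 and 54 counts, or 2.30, 4.45 and 3.72 CPM. LC libraries held 6, 28, 2 and 8 counts, or 0.377, 1.72, 0.108 and 0.502 CPM, and RF libraries held 7, 11 and 4 counts, or 0.498, 0.732 and 0.268 CPM. The AL libraries were above all others, and the LC and RF libraries overlapped, with LC replicate 2 highest among them. The log2 fold change at LC was −2.37 (SE 0.578, adjusted p = 0.00952), 5.17-fold lower, and was called under all 19 alternatives. Cidea passed the filter on low counts only through AL, where it is highest. Its calls against AL are therefore not independent of that filter, and their number is a description. At RF against AL the log2 fold change was −2.78 (95% interval −4.24 to −1.32, adjusted p = 0.208). DESeq2 called that difference (−2.83, adjusted p = 0.00984), as did edgeR without LC replicate 2 (−2.78, adjusted p = 0.0482), and no other of the 19 alternatives did. RF against LC gave −0.41 (−1.98 to 1.15, adjusted p = 0.714).

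Relative to AL the 3 CIDE genes stood at different levels after refeeding, a difference between genes that was not tested. At RF Cideb was at 89.4% of its AL mean, Cidec at 26.6% and Cidea at 14.3%. Per length Cideb took 85.0 to 87.8% of the summed FPKM of the 3 in AL libraries, 86.8 to 97.4% in LC libraries and 94.2 to 97.5% in RF libraries. Cidec took 10.5 to 13.9%, 2.24 to 11.4% and 2.26 to 5.37% in the same order. Its RF shares did not overlap with AL, and its share in LC replicate 2 (11.4%) lay inside the AL range.

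Fitm1 (NCBI gene 68680), a membrane protein of the endoplasmic reticulum that partitions triglyceride into droplets, is best known from muscle. It was at 84.5, 118 and 77.7 CPM in AL, at 36.2, 48.4, 29.1 and 46.6 CPM in LC and at 82.4, 63.5 and 72.9 CPM in RF. LC was below both other groups in every library. It was 2.33-fold lower at LC than at AL (log2 fold change −1.22, SE 0.188, adjusted p = 0.000727) and 1.82-fold higher at RF than at LC (0.86, SE 0.188, adjusted p = 0.00709), under all 19 alternatives for both. RF differed from AL by −0.36 (95% interval −0.79 to 0.08, adjusted p = 0.549). The summed level of 9 skeletal muscle markers was 0.702 to 2.30 CPM in AL, 2.32 to 3.69 CPM in LC and 1.21 to 1.93 CPM in RF libraries. The highest means among them were those of Casq1 (0.439 CPM at AL, 1.65 at LC and 0.547 at RF) and Mylpf (0.684, 0.957 and 0.766). Of 2 muscle markers tested, 1 was called higher at LC against AL. Myh4 and Myh1 were at 0 in AL and LC, Actn3 in AL and Ckm in LC. The part of muscle RNA in the level of Fitm1 was not tested.

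Fitm2 (NCBI gene 228859), the more widely expressed FITM gene, has an enzyme activity on acyl-CoA that keeps the budding membrane in order. AL libraries held 10.5, 13.6 and 14.4 CPM of it, LC libraries 3.89, 9.66, 6.30 and 7.09 CPM, and RF libraries 10.2, 12.6 and 12.5 CPM. The highest LC library, replicate 2, was just below the lowest RF library. LC was 1.90-fold lower than AL (log2 fold change −0.93, SE 0.238, adjusted p = 0.0106), under all 19 alternatives. RF was higher than LC by 0.81 (SE 0.238, adjusted p = 0.0281). That second call was lost under library totals (0.61, adjusted p = 0.0603) and without any one of LC replicate 1 (0.62, 0.0517), LC replicate 3 (0.77, 0.0625), LC replicate 4 (0.83, 0.0537), RF replicate 2 (0.75, 0.0937) or RF replicate 3 (0.76, 0.0842). RF differed from AL by −0.12 (95% interval −0.66 to 0.42, adjusted p = 0.893). Per length Fitm1 made up 90.7 to 95.1% of the summed FPKM of the FITM pair over all 10 libraries.

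Hsd17b13 (NCBI gene 243168), an abundant retinol and steroid dehydrogenase of the hepatocyte droplet, was at 539.9, 379 and 479.9 CPM in AL and at 270.4, 535, 509 and 375 CPM in LC. In RF it was at 258, 348 and 277 CPM. LC and AL overlapped widely, while all RF libraries were below all AL libraries. The difference at LC was −0.14 on the log2 scale (95% interval −0.61 to 0.33, adjusted p = 0.646). At RF against AL it was −0.66 (−1.17 to −0.16, adjusted p = 0.338), with 63.2% of the AL mean. At RF against LC it was −0.52 (−0.99 to −0.04, adjusted p = 0.107). That last value passed with library totals (−0.72, adjusted p = 0.0362) and without LC replicate 1 (−0.68, adjusted p = 0.0274).

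**Figure D4:**
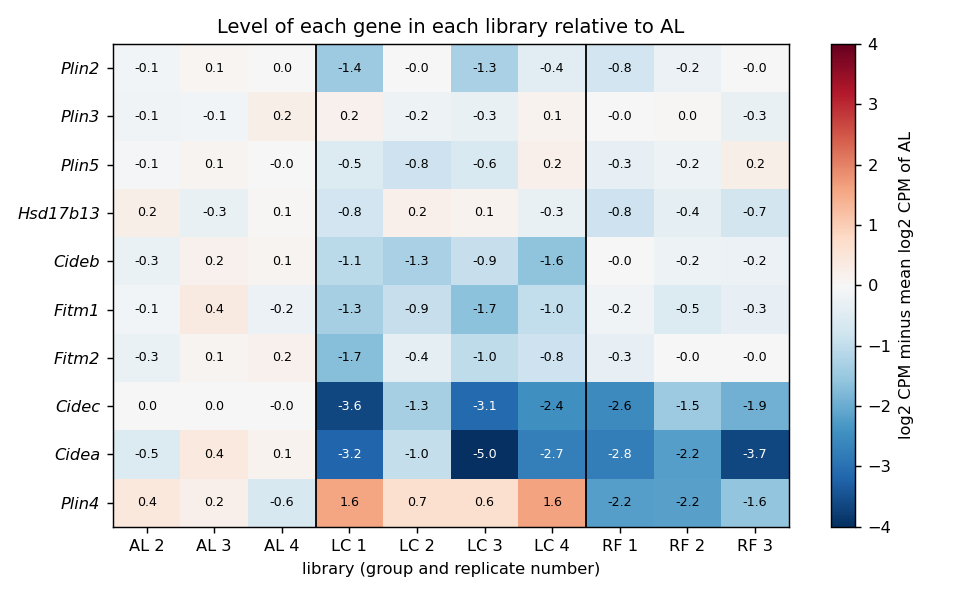
Log2 CPM of each gene in each library minus its mean log2 CPM at AL, printed in the cells (blue lower, red higher). In the row of Cidec the value of LC replicate 2 is nearest to AL among the LC libraries, and the row of Plin4 is red in all 4 LC libraries and blue in all 3 RF libraries.

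The LC libraries did not move evenly. LC replicate 2 was the highest LC library in 6 of the 10 genes, Plin2, Cidea, Cidec, Fitm1, Fitm2 and Hsd17b13, and it was also the LC library nearest to the other groups on the first principal component. RF replicate 1 was the lowest RF library in 6 of the 10. Over the 10 libraries Pearson's r of log2 CPM was 0.91 between Cidec and Cidea, 0.85 between Cidec and Plin2, 0.87 between Plin2 and Fitm2, and −0.71 between Plin4 and Cideb. These values describe the same 10 libraries, which share their group means and their scaling, and carry no test.

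Of 9309 genes whose mean reached 5 CPM, those most like Plin4 over the 10 libraries were Trib3 (r = 0.96), Pfdn5 (0.96), Rrp1 (0.96), Ces1b (0.96) and Ppil2 (0.95). Trib3, a pseudokinase gene, was at 8.67 CPM at AL, 13.0 at LC and 3.91 at RF, and it is among the 7 genes called at RF against AL (log2 fold change −1.14, SE 0.177, adjusted p = 0.0341). Most like Cidea, the gene with the largest called fall at LC against AL, were Aqp4 (0.95), Enox2 (0.94), Dcxr (0.93), Nckap1 (0.93) and Abcb4 (0.93). Aqp4, a water channel gene, was at 8.88 CPM at AL, 3.76 at LC and 4.11 at RF. Cidec, whose fall was nearly equal, was added after its values were seen: its closest genes were Smarca4 (0.99), Vps53 (0.97), Sulf2 (0.96), Ccl9 (0.94) and Atp9a (0.93). Sulf2, a heparan sulfate sulfatase gene, was at 15.9 CPM at AL, 4.83 at LC and 6.81 at RF.

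**Figure D5:**
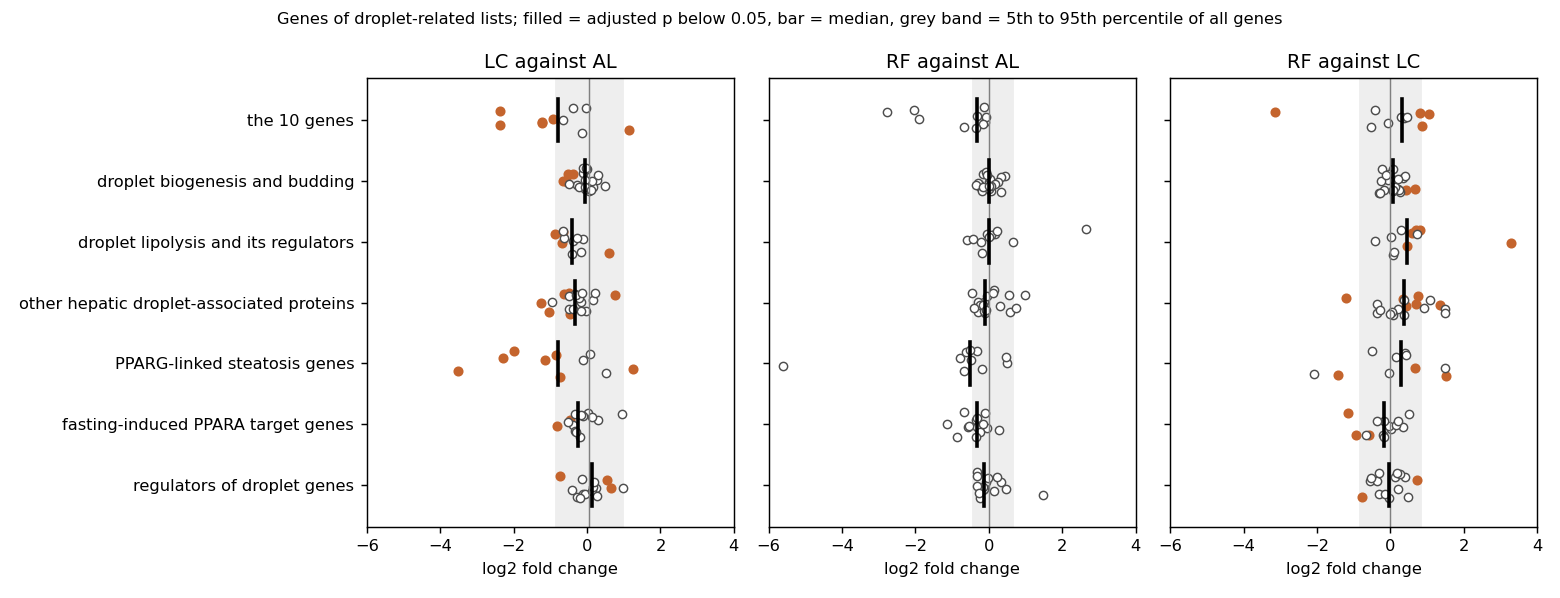
Log2 fold changes of the 10 genes and of 6 lists of droplet-related genes in the 3 comparisons. Filled points passed the adjusted test, bars are list medians and the grey band runs from the 5th to the 95th percentile of all genes. At LC against AL the median lies furthest below 0 for the 10 genes (−0.80) and the PPARG-linked list (−0.78), and no point is filled at RF against AL.

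Other genes of droplet biology were followed in 6 lists. Their counts stand against shares over all genes of 16.0% higher and 15.6% lower at LC against AL. At RF against LC those shares were 11.4% and 10.7%. Of 21 genes of droplet biogenesis and budding, 4 fell at LC against AL, near the share of all genes, and none rose, with a list median of −0.06. They were Arf1 (log2 fold change −0.67, adjusted p = 0.00265), a small GTPase that acts on droplet surfaces, Bscl2 (−0.51, adjusted p = 0.0065), which encodes seipin, Pcyt1a (−0.53, adjusted p = 0.0126), the enzyme that sets phosphatidylcholine synthesis, and the droplet GTPase gene Rab18 (−0.39, adjusted p = 0.0345). Of these, Arf1 (0.66) and Rab18 (0.41) rose at RF against LC.

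Of 11 genes of droplet lipolysis and its regulators, 3 fell and 1 rose at LC, with a median of −0.42. Abhd5 encodes CGI-58, the activator of the lipase ATGL that perilipins hold back. It fell from 28.1 ± 1.52 CPM at AL to 15.4 ± 0.659 at LC (log2 fold change −0.86, adjusted p = 0.000366) and was at 26.9 ± 2.76 CPM at RF, so no LC library overlapped either group. Vcp (−0.67, adjusted p = 0.00179) and the lysosomal lipase gene Lipa (−0.68, adjusted p = 0.0157) also fell, and Rnf213 rose (0.59, adjusted p = 0.0231). At RF against LC 5 of the 11 rose: Abhd5 (0.80), Lipa (0.69), Vcp (0.45), the monoglyceride lipase gene Mgll (0.60) and Pnpla3 (3.28), the last 2 named after their values were seen. Pnpla3 was low at LC (0.738 to 0.969 CPM) and uneven at RF, with 8.24, 14.4 and 1.60 CPM in replicates 1 to 3. RF replicate 3 lay inside its AL range (0.546 to 1.79 CPM).

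Of 19 tested genes for other proteins found on hepatic droplets or in lipoprotein loading, 5 fell and 1 rose at LC (median −0.34). Cyb5r3, a cytochrome b5 reductase, fell by 1.25 on the log2 scale (adjusted p = 0.000348), and the methyltransferase-like genes Mettl7a1 (−1.03, adjusted p = 0.0014) and Mettl7b (−0.63, adjusted p = 0.00178) fell with it. Mttp (−0.50, adjusted p = 0.0119) and Apob (−0.47, adjusted p = 0.0121), both needed for very low density lipoprotein, fell, and the carboxylesterase gene Ces1d rose (0.77, adjusted p = 0.0155). At RF against LC 5 of the 19 rose, namely Cyb5r3 (1.35), Mettl7a1 (0.74), Mettl7b (0.35), Apob (0.41) and, outside the genes above, Vim (0.71), and Ces1d fell (−1.22). Apob is also in the hepatocyte list.

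Genes linked to PPARG in fatty liver are the list whose median at LC (−0.78) came closest to that of the droplet genes: 6 of 10 tested fell and 1 rose. Pparg itself fell from 19.6 ± 1.93 CPM at AL to 11.8 ± 0.888 at LC (log2 fold change −0.72, SE 0.184, adjusted p = 0.00994), and was at 15.7 ± 5.17 CPM at RF, a range of 11.7 to 21.5 that overlaps both groups. The fatty acid transporter gene Cd36 fell by 1.15 on the log2 scale (adjusted p = 0.000782) and the monoacylglycerol acyltransferase gene Mogat1 fell by 2.28 (adjusted p = 0.00181), and both rose at RF against LC (0.66 and 1.5). Cfd, complement factor D, fell by 3.53 (adjusted p = 0.00552). AL averaged 101 ± 47.2 CPM, LC 8.77 ± 7.26 CPM and RF 2.07 ± 0.922 CPM (RF against AL −5.61, adjusted p = 0.109). Cfd thus was low at RF, like Cidec and Cidea. Acot2 (−0.83) and Orm3 (−2.0) were the other 2 that fell, and Vldlr, the very low density lipoprotein receptor gene, rose at LC (1.27, adjusted p = 0.00957) and fell at RF against LC (−1.44).

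Of 14 targets of PPARA, the receptor that fasting engages, none rose at LC and 2 fell, among them Acaa1b (−0.45, adjusted p = 0.035). Of all genes 16.0% rose and 15.6% fell there. At RF against LC 3 of the 14 targets fell, as Plin4 did, named after their values were seen: Cyp4a14 (−1.16), Cyp4a10 (−0.94) and Angptl4 (−0.58). The part of PPARA in the level of Plin4 was not tested. Of 15 regulators of droplet genes, Nr1h4, the bile acid receptor gene (0.65, adjusted p = 0.00279), and Mlxipl, the gene of the carbohydrate sensor ChREBP (0.54, adjusted p = 0.0273), rose at LC, and Pparg fell. At RF against LC Nr1h4 fell (−0.76) and Srebf1, outside the genes above, rose (0.73). No gene of any of these 6 lists was called at RF against AL, where 0.0547% of all genes were.

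Markers of other cells moved too, and their part in the results above was not tested. Their counts stand against 16.0% of all genes higher and 15.6% lower at LC against AL, and 11.4% and 10.7% at RF against LC. Of 5 tested adipocyte markers 3 fell at LC: Cfd, Car3 (−1.41) and Slc2a4 (−1.49). The summed level of the 8 in the table was 2998 to 4849 CPM in AL, 1088 to 1802 in LC and 3002 to 3228 in RF libraries. Most of it was Car3 (3486 CPM at AL), which liver also expresses, and Retn was at 0 in LC and Adipoq in RF. The other tested markers, Adrb3 and Fabp4, were not called: Adrb3 was at 39.2 ± 21.2 CPM in AL, 66.1 ± 11.7 CPM in LC and 38.0 ± 8.70 CPM in RF, and Fabp4 was at 8.19 ± 2.02, 8.69 ± 1.47 and 11.6 ± 4.87 CPM. Sinusoidal endothelium markers rose in 5 of 10 at LC, with sums of 297 to 310 CPM in AL, 435 to 462 in LC and 376 to 444 in RF libraries. Kupffer cell and macrophage markers fell in 3 of 12, with sums of 173 to 259, 137 to 245 and 185 to 264 CPM. Of 12 stellate cell markers 1 fell at LC and 6 rose at RF against LC, with sums of 359 to 382, 284 to 370.5 and 425 to 482 CPM. Cholangiocyte markers rose in 2 and fell in 1 of 7 at LC, with sums of 78.0 to 128, 110.03 to 136 and 106 to 153 CPM. None of 6 lymphocyte markers passed in either direction, with sums of 10.7 to 15.4, 13.0 to 19.2 and 17.1 to 20.1 CPM.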

How the data were processed

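Poly(A)-selected liver RNA, in 10 libraries, was sequenced without strand on the BGI DNBSEQ platform, with RNA integrity numbers of 6.6 to 8.5, per the labels. The authors deposited expected counts, estimated numbers of fragments per gene that need not be whole (10.9% of values were not), and FPKM values, fragments scaled by transcript length and library depth. Per the submitters' processing notes, HISAT, Bowtie2 and build GRCm39 were used, with no role stated; which program counted, and on which annotation, is not stated. Columns were matched to samples by library name.

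Expected counts were rounded, filtered with filterByExpr and scaled by TMM. A mean per group was fitted to all 10 libraries (edgeR 4.0.16, R 4.3.3, glmQLFit, robust) and tested with the quasi-likelihood F test, with Benjamini-Hochberg adjustment over 12789 genes and a threshold of 0.05. The design foresaw counts, which here were rounded estimates. Standard errors divide the size of a log2 fold change by the root of its F. The steps were tested on simulated counts. Libraries of 13871533 to 15899479 counts leave a counting error, for a single library at the mean AL count, of 14.5% for Cidea and 0.895% for Plin2.

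The 10 genes, the lists and the tests were chosen with earlier results of these data known, so no pattern here is independent support. All 10 genes are named. Of each pathway list, up to 6 called genes with the smallest p at LC against AL are named, with Plin1 and Pparg, and the 5 genes most like the largest called rise and fall at that comparison. Other genes are said to be chosen after their values were seen. A gene that this rule takes is not reported here. Alternatives were DESeq2 1.42.0, relative log expression, library totals, other filters, the compared groups alone, a replicate block, limma 3.58.1 on log2(FPKM + 1) or log2(FPKM + 0.1), and leaving out each library. Promoter windows come from RefSeq on GRCm38.p6; Cidea had no entry.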

Additional observations from a re-analysis of the deposited data

How the results depend on the processing

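Cidea passed the filter on low counts only through AL, so its fall among those below is not independent of that filter. The 19 alternatives kept the 5 falls at LC against AL, and the calls of Plin4, Cideb and Fitm1 at RF against LC. The 6 that ended the rise of Plin4 at LC include the replicate block (1.08, adjusted p = 0.135); the block left 5 of the 10 genes called at LC against AL, 0 at RF against AL and 4 at RF against LC, with 1957 genes higher and 1901 lower, 1 and 4, and 1613 and 1617 over the whole table. The numbers were not taken to pair libraries, since the labels do not say what they mark. Of 8 same-numbered pairs 3 had a correlation of deviations over 0.1 (−0.0644 to 0.298), and not every library correlated best with its own number. The highest values of all pairs were those of LC and RF replicates 1 (0.298) and of LC and RF replicates 2 (0.216). The highest among differently numbered pairs was 0.167, for LC replicate 4 and RF replicate 3. At RF against AL DESeq2 called 2 of the 10, the compared groups alone 1, and leaving out 1 library 0 to 2. Over all genes RF against AL gave 100 calls with DESeq2, 13 with no filter, 1 with log2(FPKM + 1), 1 with log2(FPKM + 0.1) and 1 to 13 with 1 library left out, against 7. With 1 library left out LC against AL gave 2110 (AL replicate 3) to 4353 calls against 4034, and RF against LC 1435 (RF replicate 2) to 3141 against 2821. Library totals moved the median of all genes to 0.36 at LC against AL, 0.12 at RF against AL and −0.22 at RF against LC, where 673 genes rose and 2724 fell against 1452 and 1369; log2(FPKM + 1) gave 4291 higher and 708 lower at LC against AL. Signs turned only in values that were not called. With library totals, log2(FPKM + 1) and log2(FPKM + 0.1), LC against AL was 0.27, 0.25 and 0.27 for Plin3 and 0.16, 0.12 and 0.12 for Hsd17b13, and RF against AL was 0.0085, 0.0095 and 0.011 for Plin3 and 0.024, 0.012 and 0.012 for Plin5. With the block, RF against AL was 0.081 for Plin5 and 0.11 for Fitm2, and RF against LC 0.011 for Plin3. Leaving out 1 library gave −0.11 to 0.091 for Plin3 and −0.28 to 0.022 for Hsd17b13 at LC against AL, −0.17 to 0.031 for Plin3 and −0.28 to 0.019 for Plin5 at RF against AL, and −0.14 to 0.030 for Plin3 and −0.80 to 0.63 for Cidea at RF against LC. With a library left out the fit assumes that groups share 1 spread. The causes were not tested. Fitting RF and LC alone left no value for Cidea.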

Other observations

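In TMM-scaled CPM the 3 AL libraries of Cidec differed by less than their counts alone would give: the coefficient of variation was 0.663%, against 4.07% from counting, while it was 72.6% at LC and 36.8% at RF. In the deposited FPKM values AL replicates 2, 3 and 4 were less close, at 28.97, 25.49 and 27.75 (mean 27.4, SD 1.77). With 3 libraries so small a spread is a description of these samples on the CPM scale.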
